A study of Arabidopsis thaliana with 20 samples.

Results

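AGL26 (AT5G26880), AGL54 (AT5G27090) and AGL103 (AT3G18650) are 3 Arabidopsis thaliana genes that carry the AGAMOUS-like name of the MADS-box family. They were chosen by name, as genes of this family that are each the sole gene of 1 array feature (a spotted gene probe) in the platform's annotation, and they make up 3 of the 692 features with 1 gene among the 3439 features of the array. Total RNA was measured on 20 arrays, 10 from wild-type plants (WT) and 10 from plants titled hcf145, numbered 1 to 10 in each group and all of the ecotype Wassilevskija. The labels describe hcf145 as a mutant impaired in putting together photosystem I, whereas their source name reads gun5, which is another mutant. The name in the titles is the one used below. Tissue, age, growth conditions, allele and the number of plants are not given in the sources used here.

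MADS-box proteins are transcription factors that bind DNA as pairs through the domain that names the family. In plants they fall into type II, which holds the floral organ identity genes such as AGAMOUS and the flowering repressor FLC, and type I, whose members are known mostly from the female gametophyte and the endosperm of the seed. AGL54 and AGL103 are type I genes, and the part that either plays in green tissue is not stated here. AGL26 carries a MADS-box name in the gene table, but some annotations may describe its locus as an RNA methyltransferase of the SpoU family. Which of these its product is was not checked, since no protein sequence was used here, so its values are not to be read as those of an established MADS-box factor.

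The family was thinly covered by the array. Of 100 genes in the RefSeq gene table with a name on the MADS-box list, 3 were the sole gene of a feature, and these are the 3 described here. None of the 35 type II genes was. Another 4 genes of the family (AGL53, AGL89, AGL93 and AGL101) were listed only for features that several genes share. AGL26 and AGL54 lie on chromosome 5 with 31 genes of the RefSeq table (assembly TAIR10.1) between them, of which 3 (AGL93, AGL101 and AGL53) are of the family. AGL103 lies on chromosome 3. Of the 35 tissue marker names looked for, 0 were the sole gene of a feature, so the makeup of the tissue was not checked. In a bulk sample of this kind, fewer cells of a type and less RNA per cell cannot be told apart.

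The arrays carried fewer separate measurements than their number. For 20 of 20 arrays, the array of the same group with the most similar deviations from the group mean was its neighbour in number, such as 3 for array 4, so each such pair was averaged and the groups compared as 5 averages against 5. Summed over features, the intensity of an array was 3319 to 3640. Across the array, 251 of the 3287 tested features (7.64%) had a limma adjusted p under 0.05, 121 higher in hcf145 (3.68%) and 130 lower (3.95%). Of these calls, 48.2% were thus higher in hcf145. That share was 18.3% of 356 calls in the values as deposited and 61.3% of 191 calls with each array centred on its median. The log2 difference of the median feature was -0.32 in the deposited values and -0.06 after quantile normalisation. HCF145 itself was the sole gene of 0 features and was listed only among features that several genes share. Its values there were not examined, so the labels were not checked against it. No label ties arrays to separate plants, so p-values measure the spread between these averages, which may be technical, and the number of arrays limits their precision.

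The 3 genes were read in the comparison of hcf145 with WT, and were not tested against each other. That comparison asks how transcript levels differ in a mutant described as lacking normal photosystem I assembly. AGL54 rose about 3-fold after quantile normalisation, AGL26 was lower by a margin that passed the test under some ways of processing, and AGL103 had a difference near 0. Of the 3 genes 1 passed in the averages, which is too few to read against the 7.64% of all features.

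AGL54 was dim in WT and brighter in hcf145 on all but 1 pair of arrays. Its deposited intensity ran from 0.0589 through a median of 0.134 to 0.275 on the 10 WT arrays. On the 10 hcf145 arrays it ran from 0.107 through 0.395 to 0.551. On 8 of the 10 hcf145 arrays it stood above every WT array, and on arrays 3 and 4 (0.112 and 0.107) it lay inside the WT range.

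The mean intensity of AGL54 was 0.147 ± 0.0689 in WT and 0.371 ± 0.160 in hcf145 (SD, n = 10 arrays each). After normalisation the averages of adjacent arrays stood at -3.10 ± 0.63 in WT and -1.46 ± 0.76 in hcf145 on the log2 scale (SD, n = 5 averages each). The difference was 1.64 ± 0.40 (SE), a 3.12-fold rise with a 95% interval from 1.70- to 5.71-fold (limma adjusted p = 0.0325). Of the 3287 features tested, 45 had a larger rise, and of the 660 tested features with 1 gene, 9 did.

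The averages show how unevenly AGL54 was raised. In WT the mean deposited intensities were 0.116 for arrays 1 and 2, 0.123 for 3 and 4, 0.263 for 5 and 6, 0.0768 for 7 and 8, and 0.158 for 9 and 10. In hcf145 they were 0.451, 0.109, 0.380, 0.414 and 0.501 in the same order. Thus 4 of 5 hcf145 averages lay above every WT average and 1 lay below the WT averages of arrays 1 and 2, 3 and 4, 5 and 6, and 9 and 10 in the deposited intensities. After normalisation that average, at -2.79, still lay within the WT range of -3.97 to -2.44. At least 4 of the 5 hcf145 averages stood above all WT averages for 10.4% of the 3131 features with every average present.

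**Figure D1:**
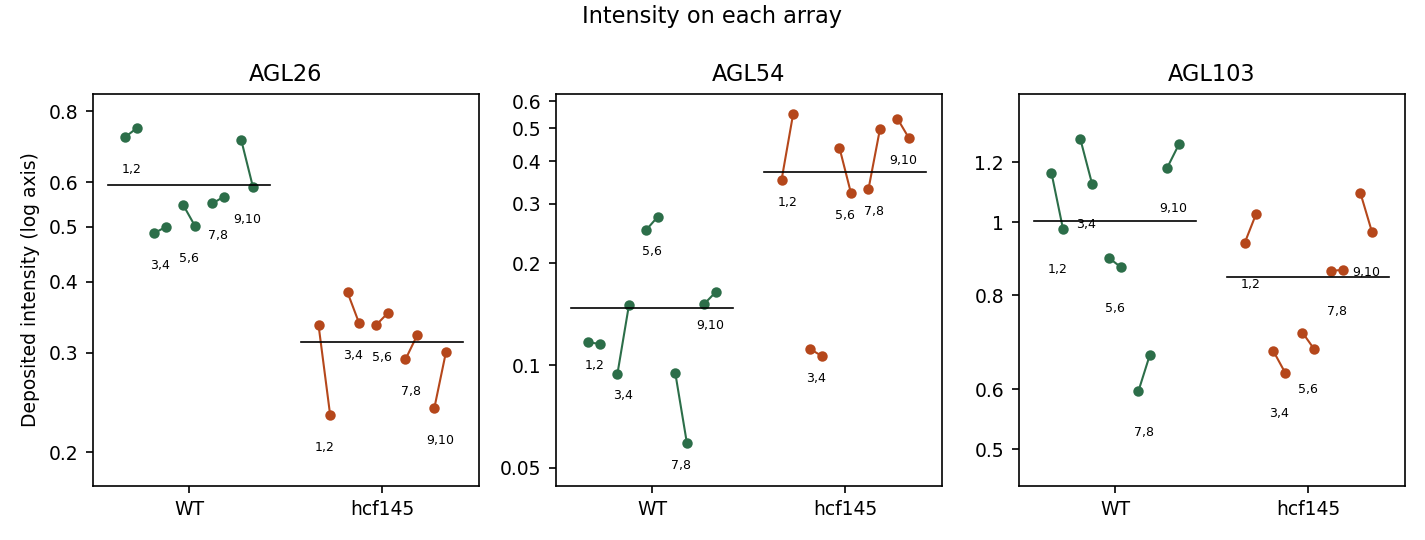
Deposited intensity (log axis, not normalised) of AGL26, AGL54 and AGL103 on each of the 10 WT and 10 hcf145 arrays; lines join adjacent arrays, small numbers give the array numbers, and black lines are group means over 10 arrays. For AGL54, hcf145 arrays 3 and 4 (0.112 and 0.107) sit among the WT arrays while the other 8 lie above all of them; for AGL26, all 10 hcf145 arrays lie below all WT arrays; for AGL103 the groups overlap.

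Ranks within an array do not depend on how arrays are scaled. AGL54 stood between the 3.09 and 20.5 percentile of tested features on the WT arrays, with a median of 10.1. On the hcf145 arrays it stood between 13.6 and 62.3, with a median of 50.1. The feature therefore moved from among the dimmest of the array to its middle on most mutant arrays.

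The rise of AGL54 kept its direction in 12 of 12 other ways of processing that gave it a value, and passed the test in 10 of them. Several of these change only the error model or the other features tested, so their direction was fixed beforehand. Its size ran from 1.13 to 1.75 on the log2 scale. It was smallest with a constant of 0.105, the 10th percentile of positive values, added to each intensity. The rise did not pass in the values as deposited (log2 difference 1.28, limma adjusted p = 0.0796) or with each array centred on its median (1.57, limma adjusted p = 0.0533). These were the only settings without quantile normalisation, so the call was made only with it. Leaving out 1 average at a time, it passed in 3 of 10 fits: without WT arrays 5 and 6 (1.81), without WT arrays 9 and 10 (1.79) and without hcf145 arrays 3 and 4 (1.97, limma adjusted p = 0.0132). It did not pass without WT arrays 1 and 2 (1.59), 3 and 4 (1.60) or 7 and 8 (1.43), or without hcf145 arrays 1 and 2 (1.55), 5 and 6 (1.59), 7 and 8 (1.60) or 9 and 10 (1.50), where limma adjusted p ran up to 0.0796.

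AGL26 was lower on every hcf145 array than on every WT array in the deposited intensities. Its values ran from 0.488 through a median of 0.558 to 0.748 in WT, and from 0.233 through 0.328 to 0.383 in hcf145. The means were 0.592 ± 0.0984 and 0.313 ± 0.0479 (SD, n = 10 arrays each). Of the 2784 features without zeros, 3.05% had every hcf145 value below every WT value in the deposited intensities.

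The median feature was also lower in the deposited values, and the gap of AGL26 narrowed with scaling. The deposited values gave AGL26 a log2 difference of -0.92 ± 0.21 (SE, limma adjusted p = 0.0233), beside the -0.32 of the median feature, and 10.8% of all features passed on that scale. After quantile normalisation the averages stood at -0.93 ± 0.34 in WT and -1.53 ± 0.25 in hcf145 (SD, n = 5 averages each). The difference was then -0.61 ± 0.23 (SE), 1.52-fold lower, with a 95% interval from 1.07- to 2.16-fold, and it was not past the threshold (limma adjusted p = 0.129).

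The normalised groups of AGL26 overlapped through 1 pair of arrays. The averages in WT were -0.68, -1.22, -1.21, -1.07 and -0.46 for arrays 1 and 2 through 9 and 10. In hcf145 they were -1.74, -1.17, -1.37, -1.69 and -1.71. The average of hcf145 arrays 3 and 4 lay above the WT averages of arrays 3 and 4 and of 5 and 6, and the other 4 lay below every WT average. At least 4 hcf145 averages stood below all WT averages for 13.9% of the 3131 features.

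In ranks, AGL26 stood between the 48.2 and 73.6 percentile on the WT arrays (median 54.5) and between 28.6 and 53.7 on the hcf145 arrays (median 41.4). The call depended on how arrays were counted as well as on scaling. AGL26 passed with the 20 arrays counted separately (limma adjusted p = 0.00549), where 29.3% of all features passed. It also passed when adjacency entered as a random block (limma adjusted p = 0.0404), where 13.1% of all features passed. Of 13 other ways of processing it passed in 3, and it was lower in hcf145 in 13 of 13. Several of these change only the error model or the other features tested. They return the same difference, so their direction was fixed beforehand. Its difference was -0.44 without arrays 9 and 10 of both groups and -0.38 with weights per average, which gave arrays 9 and 10 of both groups the lowest weights (0.409 in WT and 0.324 in hcf145).

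**Figure D2:**
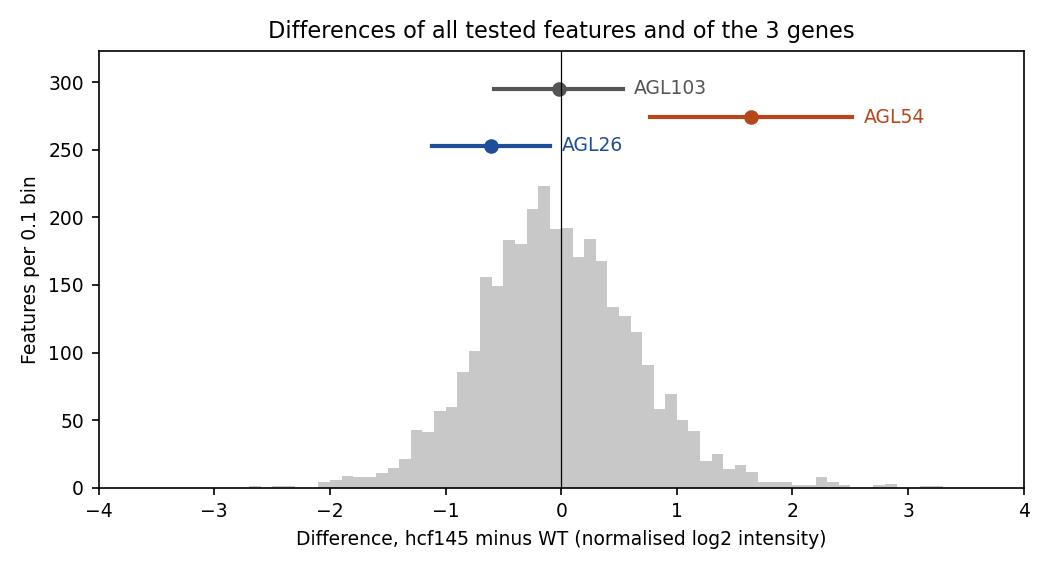
Differences between hcf145 and WT in normalised log2 intensity for all 3287 tested features (grey histogram, bins of 0.1), with the difference (point) and 95% interval (line) of each of the 3 genes above it; the height of the points carries no value. AGL54, at 1.64, lies in the right tail, AGL26 at -0.61 lies left of 0, and the interval of AGL103 spans 0.

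AGL103 gave overlapping groups. Its deposited intensity ran from 0.596 through a median of 1.05 to 1.29 on the WT arrays and from 0.632 through 0.863 to 1.09 on the hcf145 arrays. The means were 1.003 ± 0.243 and 0.845 ± 0.163 (SD, n = 10 arrays each). No hcf145 array lay above or below all WT arrays.

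After normalisation the averages of AGL103 stood at -0.16 ± 0.46 in WT and -0.18 ± 0.21 in hcf145 (SD, n = 5 averages each). The difference was -0.02 ± 0.25 (SE, limma adjusted p = 0.963), with a 95% interval from -0.58 to 0.53 on the log2 scale. That interval runs from 1.49-fold lower to 1.45-fold higher. The sign depended on the scaling, with 0.06 after median centring and -0.23 as deposited, and neither passed.

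AGL103 varied between pairs of arrays more than within them. The SD between averages of a group was 0.36 on the log2 scale and that between adjacent arrays 0.11, a ratio of 3.40, against 1.91 for AGL26 and 2.21 for AGL54. WT arrays 7 and 8 were its lowest pair (-0.87) and WT arrays 9 and 10 its highest (0.34). Without WT arrays 7 and 8 the difference was -0.20, and without WT arrays 9 and 10 it was 0.10.

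The gaps between same-numbered arrays differed from gene to gene in size and sign. The gap between hcf145 and WT for AGL54 was 2.23, 0.48, 1.196, 2.69 and 1.62 on the log2 scale for arrays 1 and 2 through 9 and 10, above 0 in 5 of 5. For AGL26 it was -1.05, 0.05, -0.16, -0.62 and -1.26, below 0 in 4 of 5. For AGL103 it was 0.13, -0.52, -0.09, 0.65 and -0.28, with both signs. The main test did not pair the numbers, and the share of all features with such runs of signs is not given here. Over the 10 averages, where the genes share arrays and scaling, the Pearson correlation of AGL26 with AGL54 was -0.70, and that of their deviations from the group means was -0.27. AGL54 and AGL103 had correlations of 0.33 and 0.60 in the same order.

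AGL26 and AGL54 were each also listed for 1 further feature that several genes share, and neither of these features passed the test. The feature shared by AGL54, AGL53 and AGL93 had intensities of 0.678 ± 0.205 in WT and 0.446 ± 0.0693 in hcf145 (SD, n = 10 arrays each). Its log2 difference was -0.31 ± 0.23 (SE, limma adjusted p = 0.402), opposite in sign to that of AGL54 alone, with a 95% interval from -0.80 to 0.18. The feature shared by AGL26, AGL89, AGL101 and AT5G27944 had intensities of 0.214 ± 0.0744 in WT and 0.143 ± 0.0978 in hcf145 (SD, n = 10 arrays each), with a log2 difference of -0.35 ± 0.38 (SE, limma adjusted p = 0.589), of the same sign as that of AGL26 alone, and a 95% interval from -1.18 to 0.49. As deposited its difference was -0.81 (limma adjusted p = 0.177), beside the -0.92 of AGL26 and the -0.32 of the median feature. The feature shared by AGL54, AGL53 and AGL93 had a deposited difference of -0.56 (limma adjusted p = 0.149), beside the 1.28 of AGL54 alone. These values belong to no single gene. The platform's annotation lists AGL54 together with relatives for the shared feature, and no sequences were compared. Whether the feature of AGL54 alone measures only 1 gene is therefore uncertain and was not tested.

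**Figure D3:**
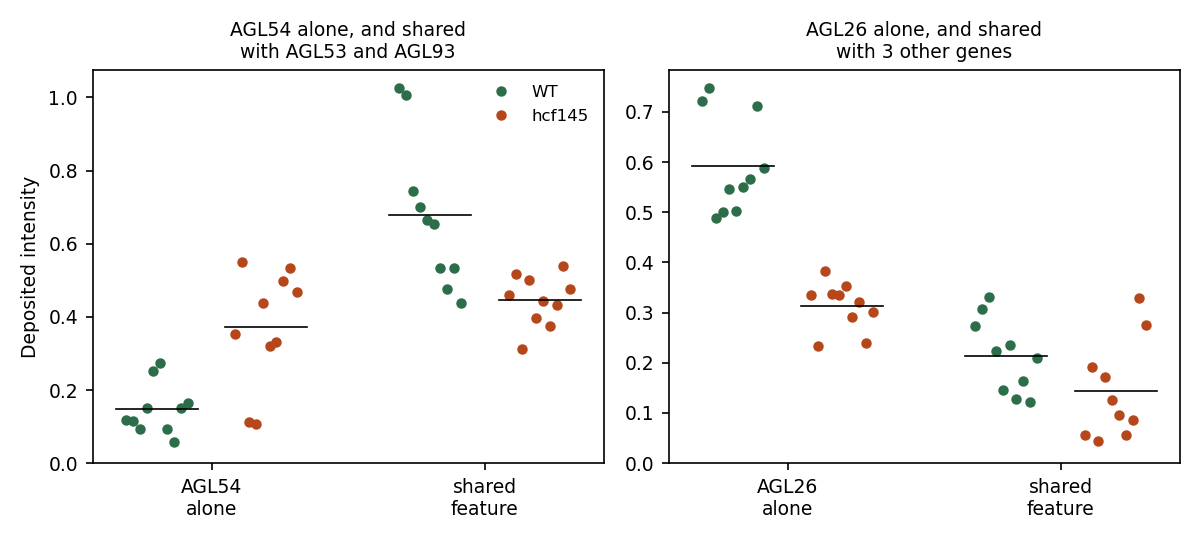
Deposited intensity on each WT and hcf145 array for the feature of AGL54 alone and the feature shared by AGL54, AGL53 and AGL93 (left), and for AGL26 alone and the feature shared by AGL26, AGL89, AGL101 and AT5G27944 (right); points are arrays and black lines group means. The feature of AGL54 alone was higher in hcf145 (means 0.147 and 0.371), while the shared feature had means of 0.678 in WT and 0.446 in hcf145; levels of different features cannot be compared with each other.

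A search for transcription factor words in the gene names found 2 further genes that were the sole gene of a feature, and neither passed. The search does not count every transcription factor on the array, since the names of others, such as IAA31, SPL and LAS, hold none of these words. TCP15, a TCP-class factor of leaf and flower growth, had a log2 difference of 0.11 ± 0.24 (SE, limma adjusted p = 0.806). AT4G03090 encodes NDX, a homeobox protein known to act on the antisense transcript of the MADS-box gene FLC, and had a difference of 0.61 ± 0.32 (SE, limma adjusted p = 0.246). A like search for words of tRNA and rRNA methyltransferases found 0 genes that were the sole gene of a feature. Genes named only by their locus could not match it, so such enzymes may still be on the array. Of the 12 genes that lie next to AGL26, AGL54 and AGL103 on the chromosome, 0 were the sole gene of a feature.

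The features most like each gene over the 10 averages were found among 626 other features with 1 gene and no missing average, and all points share arrays and scaling. For AGL54 they were CKS, AT4G08940 and AT4G24840, with Pearson correlations of 0.86, 0.86 and 0.85. CKS activates the sugar Kdo for pectin. Its feature was dim, with mean intensities of 0.053 in WT and 0.101 in hcf145. The 10th percentile of positive values was 0.105. The log2 differences were 1.60 for CKS, 0.63 for AT4G08940 and 1.05 for AT4G24840 (limma adjusted p = 0.00750, 0.104 and 0.0245), and AT4G08940 did not pass. Within the groups, the deviations of these 3 features correlated with those of AGL54 at 0.54, 0.61 and 0.52.

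For AGL26 the most similar features were AT5G34870 (0.87), AT1G22700 (0.83) and PSAN (0.83). AT1G22700 encodes PYG7, which photosystem I needs in order to accumulate, and PSAN is a lumenal subunit of that photosystem. Their deviations within the groups correlated with those of AGL26 at 0.80, 0.57 and 0.59. The correlation includes the difference between the groups, so features that differ in the direction of AGL26 are favoured by it. The log2 differences were -0.43 for AT5G34870, -1.81 for AT1G22700 and -0.96 for PSAN (limma adjusted p = 0.274, 0.0243 and 0.0201), and the first did not pass.

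For AGL103 they were AT4G15840, ATAB2 and AT5G44150, with correlations of 0.85, 0.84 and 0.82, and none of these passed the test between the groups (limma adjusted p = 0.459, 0.821 and 0.946). ATAB2 encodes an RNA-binding protein needed to make photosystem subunits in the chloroplast. Its feature was also dim, with mean intensities of 0.106 in WT and 0.050 in hcf145. The deviations within the groups correlated at 0.93, 0.85 and 0.82.

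**Figure D4:**
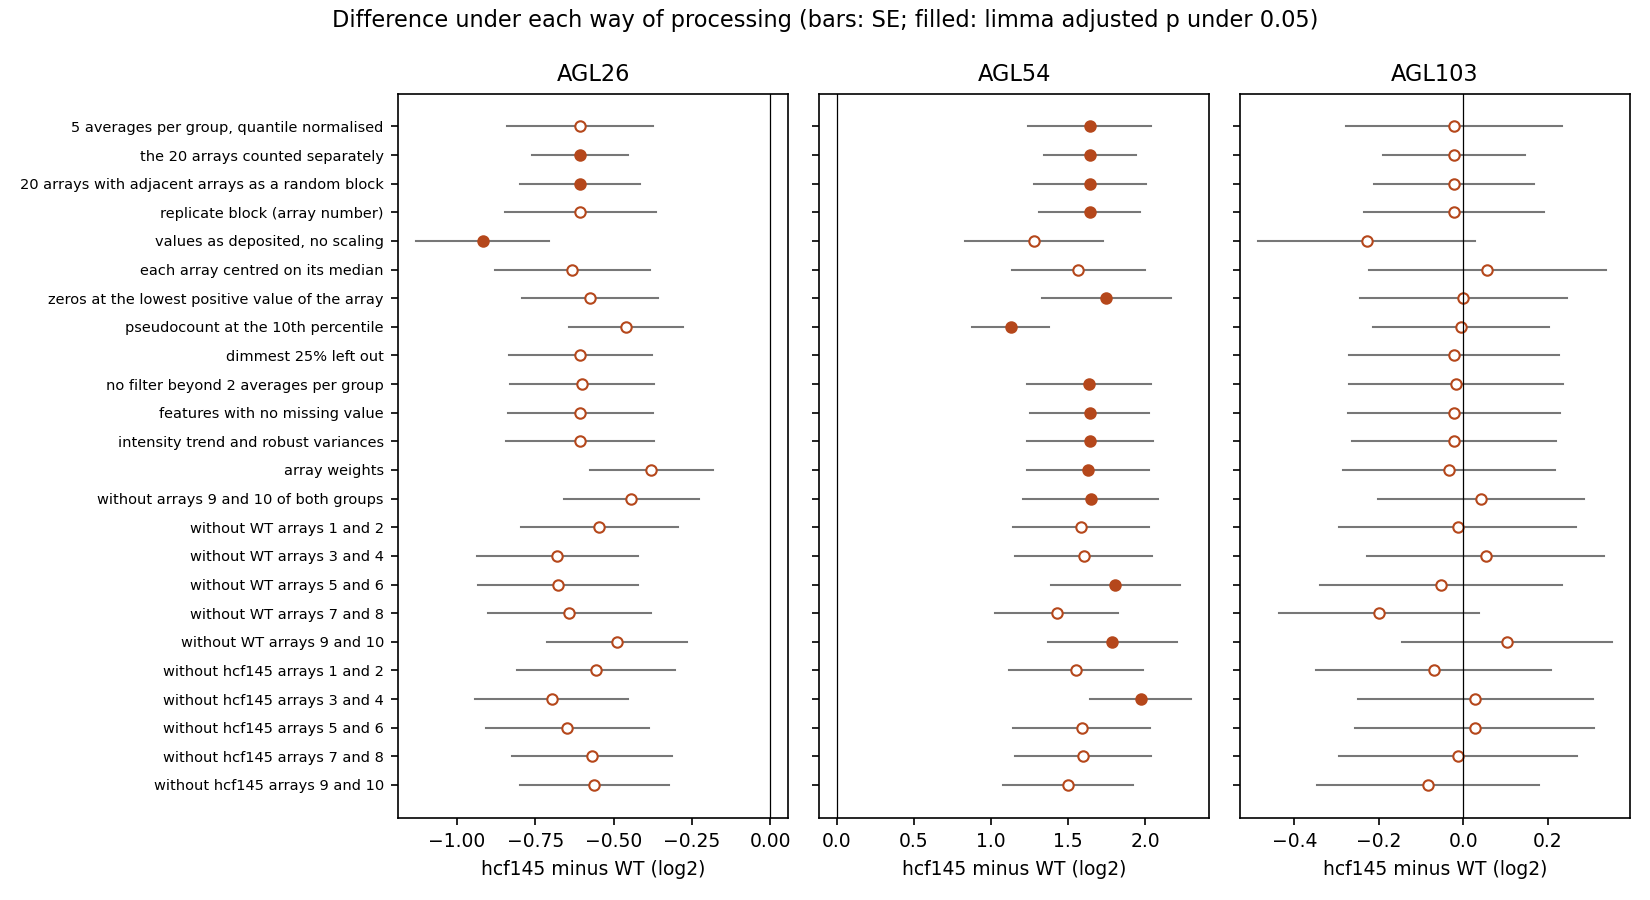
Log2 difference between hcf145 and WT for each gene under each way of processing and with each average of 2 adjacent arrays left out; points are differences, bars are SE, and filled points have a limma adjusted p under 0.05. AGL54 lies right of 0 under each setting shown, AGL26 lies left of 0, and AGL103 falls on both sides; AGL54 has no value where the dimmest 25% of features are left out.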

How the data were processed

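The values the authors deposited were linear intensities, 1 column per array, a unit inferred from the values themselves. No source used here tells how these intensities were quantified or scaled. Features were named through the platform annotation (692 with 1 gene, 870 with several, 1877 with none), and 690 of the 692 were matched to RefSeq genes of TAIR10.1, used for names and gene order. Zeros were set missing, log2 values with at least 5 arrays per group were kept (3287 features), quantile normalised, and adjacent arrays averaged, because their deviations correlated at 0.661. Groups were compared with limma 3.58.1 in R 4.3.3 (two-sided, Benjamini-Hochberg over 3287 features, threshold 0.05), tested on simulated data. Same-numbered averages of the groups had correlated deviations of 0.06 to 0.42. Only arrays 3 and 4 (0.06) were not over 0.1, the limit set for each number. For this reason numbers were not treated as pairs in the comparison above, and a fit with them as a block is given as an alternative. Named were the 3 genes, other genes of the MADS-box, transcription factor and methyltransferase lists, chromosomal neighbours and the 3 most similar features. The genes, lists and tests were chosen with earlier results of these data known. Alternatives changed the scaling, the treatment of zeros, filters, variance model, block and array weights, or left out arrays.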

Additional observations from a re-analysis of the deposited data

Results flagged for a closer look

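AGL54 on hcf145 arrays 3 and 4 lay far from the rest of its group. Their average stood at -2.79 on the normalised log2 scale, while the other 4 hcf145 averages lay between -1.28 and -0.90. It was the 1 such value among 28 groups of arrays or averages looked at for the 3 genes, the 2 other transcription factors and the 2 shared features, where the limit used is meant to let chance give about 1 in 20 separate groups. The groups were not separate, since the averages were made from the same arrays. Both arrays of the pair were low. Without this pair the log2 difference was 1.97 (limma adjusted p = 0.0132) in place of 1.64. The pair was picked for being low, so leaving it out could only raise the difference.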

How the results depend on the processing

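AGL26 kept its direction in each setting tried, some of which could not change its difference. It passed the threshold with 20 separate arrays and with adjacent arrays as a random block (both -0.61), and in the values as deposited (-0.92). An exact permutation test over the averages gave a two-sided p = 0.0238, where 0.00794 is the smallest possible. That p is not adjusted for the number of features, so it does not count as passing. Without adjustment, 863 of the 3287 features had a limma p under 0.05 in the averages. For AGL26, leaving out 1 average gave -0.70 to -0.49, and 1 array -0.66 to -0.56. AGL54 lost its call as deposited (1.28) and with median centring (1.57), the only settings without quantile normalisation. Its smallest difference was 1.13, with a constant of 0.105 added to each intensity, and there it kept its call. Leaving out 1 average gave 1.43 to 1.97, and 1 array 1.57 to 1.71. The exact permutation p of AGL54, also unadjusted, was 0.0238, and leaving out the dimmest 25% removed this gene. AGL103 changed sign with median centring (0.056) and without arrays 9 and 10 (0.042); leaving out 1 average gave -0.20 to 0.10, and 1 array -0.05 to 0.01. It passed in none of these settings.

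The count of called features was 962 with 20 separate arrays, 429 with adjacent arrays as a random block, 511 with the array number as a replicate block and 517 with array weights, in place of 251. It was 49 to 254 with 1 average left out, lowest without WT arrays 7 and 8, and 199 to 252 with 1 array left out. The replicate block changed no call of the 3 genes, and 8 of 10 averages correlated best with their own number in the other group.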

Other observations

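Arrays 3 and 4 of hcf145 were the exception for both AGL54 and AGL26, in opposite directions. Of the 3131 features with every average present, 178 had exactly 4 hcf145 averages above all WT averages. The average left inside or below the WT range was that of arrays 3 and 4 for 17 of these, 1 and 2 for 62, 5 and 6 for 25, 7 and 8 for 21 and 9 and 10 for 53. Likewise 263 features had exactly 4 hcf145 averages below all WT averages, and the exception was arrays 3 and 4 for 42 of them, 1 and 2 for 84, 5 and 6 for 19, 7 and 8 for 27 and 9 and 10 for 91. These counts were made after the values of AGL54 had been seen.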
